A study of Homo sapiens with 4 samples.

Results

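RNA-seq was done on U2OS cells, an established human osteosarcoma line, to compare cells with a short hairpin knockdown of GREM1 (labelled shGREM1) with control cells (labelled shControl). Each of the 2 groups had 2 libraries. The genes described here are the TGF-beta ligand, receptor and target genes TGFB1, TGFB2, TGFB3, TGFBR1, TGFBR2, TGFBR3, SMAD3, PMEPA1, TGFBI and SKIL, which were taken by gene symbol and make up 10 of the 58735 genes in the count table. All 10 passed the count filter, as did 18442 genes in all. The hairpin sequence, the time after knockdown and the number of clones are not stated by any source used here.

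Library totals ran from 15492826 to 16353015 counts. GREM1, which encodes a secreted antagonist of bone morphogenetic proteins, was counted 2 times in shControl-1 and 0 times in shControl-2, and once in either shGREM1 library. A count of 0 allows up to 3 counts, or 0.194 CPM (a count scaled to the library total), in shControl-2, for counting error only. GREM1 was thus near 0 counts in the shControl libraries too, and the knockdown could not be checked from these counts. The differences below are differences between the libraries labelled shGREM1 and shControl. Of 8 markers of mesenchymal and osteoblast cells, SPARC, COL1A1, VIM, THY1 and RUNX2 had over 60 CPM in every library, ALPL had 13.3 and 8.65 CPM for shControl but 3.91 and 7.39 CPM for shGREM1, COL1A2 had at most 1.22 CPM, and TWIST1 had 1 count in all. Their summed level was 2120 to 2201 CPM in shControl and 2779 to 2930 CPM in shGREM1. Most of that sum was SPARC (856 and 873 CPM against 1368 and 1136 CPM) and COL1A1 (605 and 575 CPM against 766 and 933 CPM). VIM, THY1 and RUNX2 overlapped between the groups. The 6 blood markers summed to at most 1.68 CPM in a library, with HBB at 0 in every one, and the 4 endothelial markers to between 12.4 and 18.4 CPM. The 6 epithelial markers summed to 105 and 120.4 CPM for shControl but 102 and 157 CPM for shGREM1, the most abundant being CLDN4, at 88.4 and 97.3 CPM against 68.7 and 96.8 CPM. EPCAM had 5.10 and 6.003 CPM against 11.3 and 11.02 CPM, and KRT14 had 8.93 and 14.2 CPM against 17.1 and 43.5 CPM. The part of these markers in the results was not tested. Whether a pair of samples grew as separate cultures is not in the labels. The p-values hence cover the spread among these 4 samples alone, and that spread may be technical. In bulk RNA, fewer cells of a type and less RNA per cell cannot be told apart.

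TGF-beta is a family of secreted dimers that are stored outside the cell in a latent form, bound to latent TGF-beta binding proteins and to fibrillin microfibrils, and are set free by integrins and other factors. The free ligand binds the type II receptor TGFBR2, a serine/threonine kinase, which recruits and phosphorylates the type I receptor TGFBR1. TGFBR1 then phosphorylates SMAD2 and SMAD3, which enter the nucleus with SMAD4 and act on target genes. In bone, TGF-beta is stored in the matrix and acts on cells of the osteoblast lineage.

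TGFBR2 fell to about 50% of its control level, PMEPA1 rose and SMAD3 fell by a smaller amount. The ligand gene TGFB1 stayed at 327 to 352 CPM in all 4 libraries. A gene is said to have risen or fallen where edgeR's quasi-likelihood test gave a Benjamini-Hochberg adjusted p below 0.05 over all genes kept. By this rule 1 of the 10 genes rose, 2 fell and 7 did not pass. Over all 18442 genes, 7.69% passed, 3.57% as higher and 4.12% as lower in shGREM1. At an unadjusted edgeR p below 0.05 there were 5 of the 10, beside 23.2% of all genes. The CPM ranges of the groups did not overlap for 2 of the 10 genes that were higher (TGFBR1, PMEPA1) and for 4 that were lower (TGFB2, TGFBR2, TGFBR3, SMAD3), where such separation held for 27.0% of all genes as higher and 26.6% as lower. The median log2 fold change of the 10 genes, shGREM1 minus shControl, was 0.10, beside 0.0049 over all genes, with 6 of them above 0 and 4 below. The 10 genes were proposed with earlier results of these data known, so these counts describe them and test nothing.

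**Figure D1:**
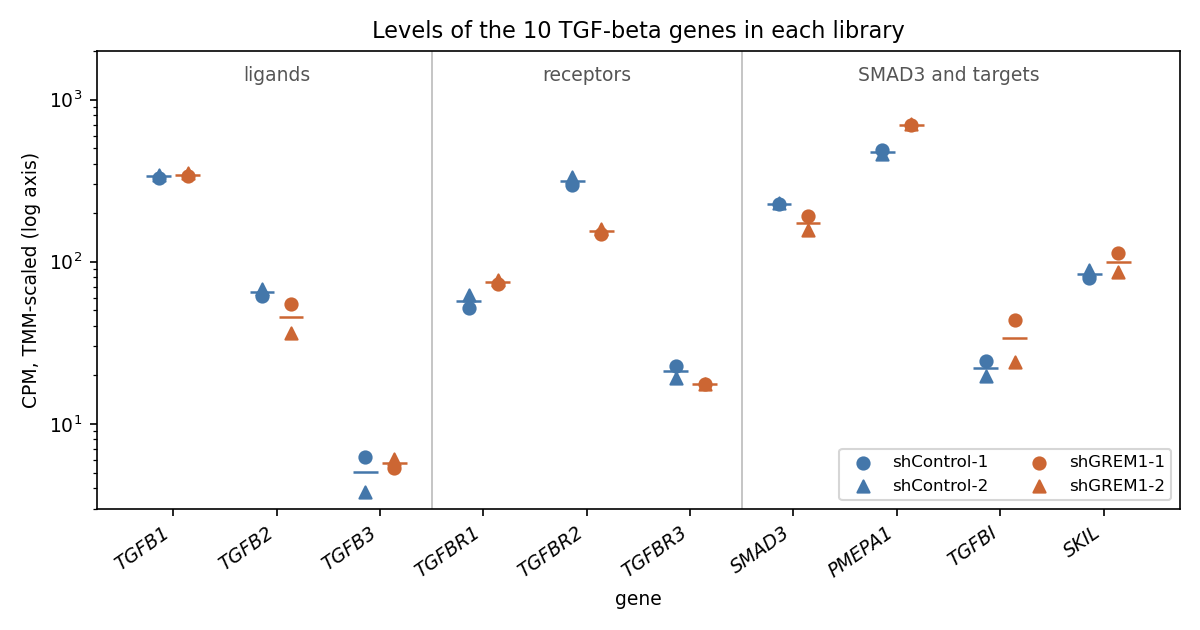
TMM-scaled CPM on a log axis for each of the 10 genes, with 1 point per library (circles for replicate 1, triangles for replicate 2) and a line at the mean of each group of 2. TGFBR2 lies at 299 and 331 CPM for shControl, with 149 and 158 CPM for shGREM1, while the TGFB1 points lie together.

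The ligand genes differed far more from each other than between the groups. TGFB1 (ENSG00000105329, chromosome 19, 41301587 to 41353911, minus strand, GRCh38), the most widely expressed ligand, measured 327 and 345 CPM in the control pair of libraries, then 336 and 352 CPM in the shGREM1 pair. These values interleaved, and the log2 fold change was 0.03, with a 95% interval from -0.19 to 0.26 (edgeR adjusted p = 0.893). TGFB1 shares 215 exon bases with HNRNPUL1 on the other strand, a gene at a mean of 390.1 CPM whose log2 fold change was 0.17 (edgeR adjusted p = 0.388). No source used here gives the strand setting of the counts, so reads of such a stretch cannot be told apart.

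TGFB2 (ENSG00000092969, chromosome 1, 218346235 to 218444619, plus strand), the ligand that depends most on the co-receptor TGFBR3 for binding, measured 61.6 and 67.6 CPM in the control pair of libraries, then 55.0 and 36.1 CPM in the shGREM1 pair. Both shGREM1 libraries were below both controls, and shGREM1-2 was the lower of them. The difference did not pass, at -0.50 ± 0.18 (SE) in log2 (edgeR adjusted p = 0.131). Over 12 alternative fits the adjusted p ran from 1.88e-06 to 0.398, and it passed in 3 of them, among them the fit without shGREM1-1, where the log2 fold change was -0.84. Without shGREM1-2 it was -0.23. TGFB2-OT1, which lies on the same strand, covers 1371 of the 5151 exon bases of TGFB2 and had no counts. The counting program is not given, so whether reads of that stretch were counted for TGFB2 is not known.

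TGFB3 (ENSG00000119699, chromosome 14, 75958099 to 75982991, minus strand), the remaining ligand, was the least abundant member, with 6.28 and 3.82 CPM in the controls, then 5.31 and 6.09 CPM in the shGREM1 pair. The shGREM1 values lay between the control values, and the 95% interval of the log2 fold change, from -0.43 to 0.78, leaves a wide range (edgeR adjusted p = 0.775).

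Per length of exon, TGFB1 supplied most of the ligand transcripts. Length here is that of all merged exons of a gene. Which transcripts these cells used is not known, so levels compared between genes depend on that length. In units of CPM per kilobase, TGFB1 had 104 ± 3.84 in shControl and 106 ± 3.39 in shGREM1 (SD, n = 2 each). On the same scale TGFB2 had 12.5 ± 0.828 and 8.85 ± 2.59, and TGFB3 had 1.03 ± 0.354 and 1.16 ± 0.113. As a share of the 3 ligands together, TGFB1 was 88.4% in both control libraries and 89.8% and 92.9% in shGREM1, and TGFB2 was 10.5% and 10.9% against 9.25% and 6.003%. The TGFB2 share was thus lower in both shGREM1 libraries, by 3.07 percentage points on average, with an exact two-sided permutation p of 0.333, which is the smallest that 2 against 2 allows. The size rested on shGREM1-2: the TGFB2 share differed by -4.69 points without shGREM1-1 and by -1.445 points without shGREM1-2.

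The receptor gene TGFBR2 showed the largest change of the 10. TGFBR2 (ENSG00000163513, chromosome 3, 30606502 to 30694142, plus strand) drew 4610 and 5106 counts in the control pair, then 2440 and 2544 counts in the shGREM1 pair, which correspond to 299 and 331 CPM against 149 and 158 CPM. The groups were far apart and the libraries within each group were close. TGFBR2 was 2.05-fold lower in shGREM1, a difference in log2 of -1.04 ± 0.11 (SE; edgeR adjusted p = 5.21e-05), and it ranked at 18 by adjusted p among the 759 genes that were lower. It passed in all 12 alternative fits, with log2 fold changes between -1.11 and -0.96 and an adjusted p of at most 0.000206.

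TGFBR1 (ENSG00000106799, chromosome 9, 99104038 to 99154192, plus strand), the type I receptor that TGFBR2 activates, went the other way, with 51.8 and 62.5 CPM in the controls, then 72.6 and 76.98 CPM in the shGREM1 pair. Both shGREM1 libraries were above both controls, but the difference, 0.39 ± 0.12 (SE) in log2, narrowly missed the threshold (edgeR adjusted p = 0.0649). Of 12 alternative fits it passed in 6, with an adjusted p between 0.0186 and 0.487. Without shControl-1, the adjusted p was 0.487 and the log2 fold change 0.25, and without shControl-2 they were 0.0446 and 0.53.

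TGFBR3 (ENSG00000069702, chromosome 1, 91680343 to 91906335, minus strand), the proteoglycan co-receptor betaglycan that presents ligand to TGFBR2, measured 22.9 and 19.2 CPM in the control pair of libraries, then 17.5 and 17.6 CPM in the shGREM1 pair. The shGREM1 libraries lay close below the lower control, and the difference did not pass (log2 fold change -0.26, 95% interval -0.60 to 0.08; edgeR adjusted p = 0.352).

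The make-up of the receptor transcripts therefore differed between the groups. Per length of exon, TGFBR2 was 86.2% and 86.1% of the summed level of the 3 receptors in shControl and 71.5% and 71.7% in shGREM1. TGFBR1 was 10.3% and 11.2% in shControl and 24.0% in each shGREM1 library. The TGFBR2 share was lower by 14.5 percentage points and the TGFBR1 share higher by 13.3 points (13.25), each with an exact two-sided permutation p of 0.333, the smallest possible here. Shares add up to the whole, so a lower TGFBR2 level by itself raises the other shares. The TGFBR3 share was also higher, at 4.54% and 4.31% in shGREM1 against 3.57% and 2.70% in shControl, although its level was lower. The level of TGFBR2 per length was 8.40 and 7.70 times that of TGFBR1 in the control libraries, and 2.98 and 2.99 times in the shGREM1 libraries. TGFBR2 remained the most abundant receptor transcript of the 3 in every library.

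**Figure D2:**
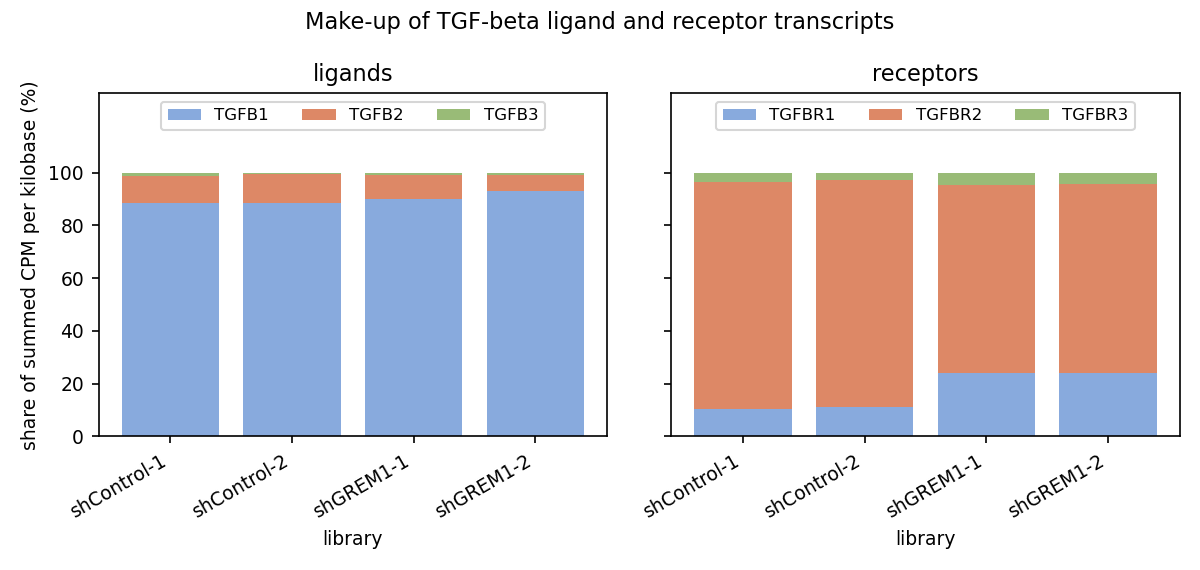
Share of each gene (%) in the summed CPM per kilobase of the 3 ligand genes (left) and the 3 receptor genes (right), as stacked bars with 1 bar per library. TGFB1 fills 88.4% to 92.9% of the ligand bars, and TGFBR1 fills 10.3% and 11.2% of the control receptor bars against 24.0% of each shGREM1 bar.

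SMAD3 and the target genes did not move in one direction. SMAD3 (ENSG00000166949, chromosome 15, 67063763 to 67195195, plus strand), the transcription factor that carries the signal to the nucleus, measured 227 and 229 CPM in the control pair of libraries, then 190.0 and 156 CPM in the shGREM1 pair. The control libraries were nearly equal, and the shGREM1 libraries were both lower and further apart. SMAD3 fell 1.32-fold (log2 fold change -0.40 ± 0.12, SE; edgeR adjusted p = 0.0467), close to the threshold. Over 12 alternative fits its adjusted p ran from 0.000565 to 0.186 and passed in 6. It did not pass without shControl-1 (0.157), without shControl-2 (0.155) or without shGREM1-2 (0.186), nor with upper-quartile scaling (0.064), total count scaling (0.056) or limma-voom (0.0531), while the log2 fold change stayed between -0.55 and -0.26.

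PMEPA1 (ENSG00000124225, chromosome 20, 57648392 to 57711536, minus strand), a membrane protein gene induced by TGF-beta whose product binds SMAD2 and SMAD3 and dampens the signal, was the most abundant of the 10 by CPM. It drew 7594 and 7163 counts in the control pair, then 11475 and 11290 counts in the shGREM1 pair, or 492 and 464 CPM against 700.0 and 702 CPM. The shGREM1 libraries were nearly equal and both were above the controls. PMEPA1 rose 1.47-fold (log2 fold change 0.55 ± 0.11, SE; edgeR adjusted p = 0.00528). It passed in 10 of 12 alternative fits, with an adjusted p between 2.71e-05 and 0.0888, and failed with either control left out (shControl-1, 0.0527; shControl-2, 0.0888), at log2 fold changes of 0.59 and 0.51.

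NKILA, a long non-coding RNA on the other strand known to bind the NF-kB complex, shares 343 exon bases with PMEPA1. It measured 26.9 and 24.3 CPM in the control pair of libraries, then 46.9 and 35.4 CPM in the shGREM1 pair and rose as well (log2 fold change 0.69 ± 0.15, SE; edgeR adjusted p = 0.0124). It did not pass without shControl-2, where the adjusted p was 0.0626. PMEPA1 and NKILA counts cannot be told apart in the shared stretch. NKILA was singled out after its values were seen.

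SKIL (ENSG00000136603, chromosome 3, 170357678 to 170396835, plus strand), which encodes the SMAD corepressor SnoN, measured 79.9 and 89.2 CPM in the control pair of libraries, then 113 and 86.7 CPM in the shGREM1 pair. Only shGREM1-1 lay above the controls, and the gene did not pass (log2 fold change 0.24 ± 0.13, SE; edgeR adjusted p = 0.291). Without shGREM1-2 its log2 fold change was 0.42, with an adjusted p of 0.0166, and without shGREM1-1 it was 0.04, so the size of its difference depended on shGREM1-1. Over the 12 alternatives the adjusted p ran from 0.0166 to 0.918.

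TGFBI (ENSG00000120708, chromosome 5, 136028895 to 136063818, plus strand), which encodes a secreted matrix protein induced by TGF-beta, showed the same split. It measured 24.3 and 19.7 CPM in the control pair of libraries, then 43.4 and 24.1 CPM in the shGREM1 pair, so shGREM1-2 lay within the control range. The log2 fold change was 0.62 ± 0.30 (SE; edgeR adjusted p = 0.300), 0.98 without shGREM1-2 and 0.13 without shGREM1-1. Over the 12 alternatives the adjusted p ran from 2.35e-07 to 0.73. The feedback and matrix targets PMEPA1, SKIL and TGFBI thus had log2 fold changes above 0 beside a value below 0 for SMAD3, and among them PMEPA1 was the gene that passed.

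**Figure D3:**
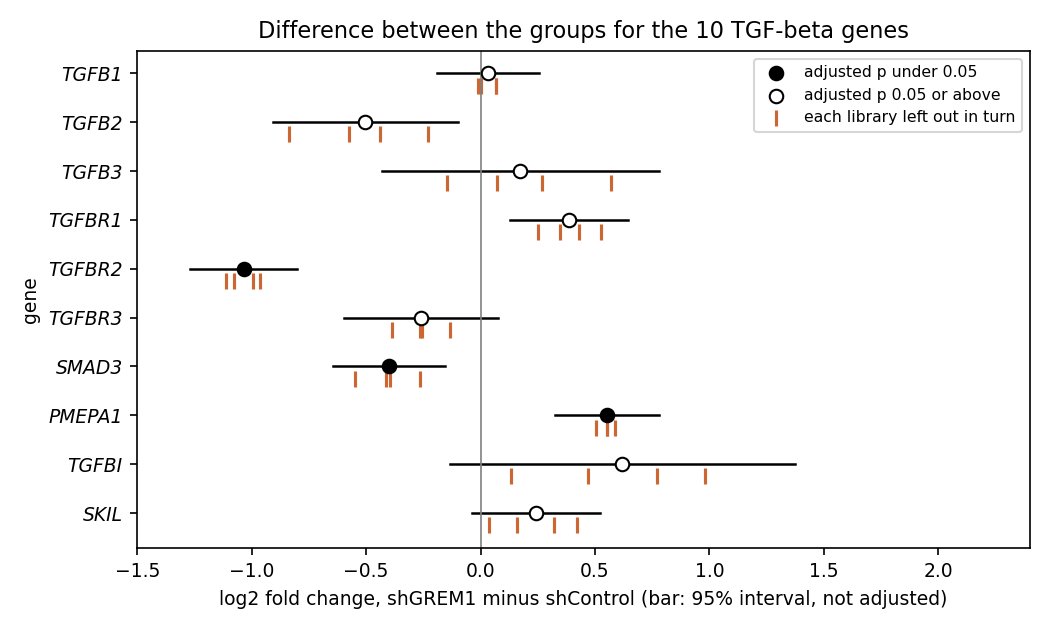
Log2 fold change (shGREM1 minus shControl) of each of the 10 genes from edgeR, with an unadjusted 95% interval as a bar; filled points passed at an adjusted p below 0.05, and orange ticks give the value with each of the 4 libraries left out in turn. The interval of TGFBR2 runs from -1.27 to -0.80, and the ticks of TGFBI spread from 0.13 to 0.98.

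The order of the levels differed between the groups. It depends on the merged exon lengths, from 3238 bases for TGFB1 to 9113 for SMAD3, and the transcripts in use may be shorter. Per length, in CPM per kilobase, the control order was TGFB1 (104 ± 3.84), PMEPA1 (85.1 ± 3.50), TGFBR2 (66.9 ± 4.84), SMAD3 (25.0 ± 0.209), TGFB2, SKIL (10.9 ± 0.849), TGFBR1 (8.35 ± 1.11), TGFBI (2.82 ± 0.416), TGFBR3 (2.41 ± 0.300) and TGFB3 (SD, n = 2 each). TGFBI and TGFBR3 were neighbours whose control libraries overlapped. In shGREM1, PMEPA1 (125 ± 0.255) stood above TGFB1, TGFBR2 followed at 32.6 ± 1.40 and SMAD3 at 19.0 ± 2.66. Below them came SKIL (12.8 ± 2.41), TGFBR1 (10.9 ± 0.453) and TGFB2, where SKIL overlapped with TGFBR1 and TGFBR1 with TGFB2 between libraries, and then TGFBI (4.33 ± 1.75), TGFBR3 (2.02 ± 0.00729) and TGFB3.

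The sequences before the transcription starts of the 3 genes that passed are shown to compare their composition. They were also searched for CAGAC, a short motif that SMAD3 is known to bind, though not the only sequence it may bind. They come from RefSeq on GRCh38.p14, which had entries for all 10 genes. Each holds the 250 bases before the RefSeq start that lies nearest to the 5′ end of the gene among those whose window holds neither an exon of the gene nor another of its starts. Which starts these cells used cannot be read from gene counts. Each line is 5′ to 3′ on the strand of the gene, and capitals mark GGGCGG or its complement CCGCCC, the GC box.
TGFBR2, chr3:30606106-30606355, plus strand: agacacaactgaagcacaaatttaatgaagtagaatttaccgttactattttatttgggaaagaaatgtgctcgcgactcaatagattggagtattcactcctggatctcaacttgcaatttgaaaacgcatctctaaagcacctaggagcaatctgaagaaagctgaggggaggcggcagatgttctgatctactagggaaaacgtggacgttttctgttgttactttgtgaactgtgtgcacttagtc
SMAD3, chr15:67065352-67065601, plus strand: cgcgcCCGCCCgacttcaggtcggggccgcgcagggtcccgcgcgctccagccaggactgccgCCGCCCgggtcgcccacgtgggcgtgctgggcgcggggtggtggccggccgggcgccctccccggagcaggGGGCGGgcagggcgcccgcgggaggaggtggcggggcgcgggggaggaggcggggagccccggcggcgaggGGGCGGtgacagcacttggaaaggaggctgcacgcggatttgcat
PMEPA1, chr20:57710016-57710265, minus strand: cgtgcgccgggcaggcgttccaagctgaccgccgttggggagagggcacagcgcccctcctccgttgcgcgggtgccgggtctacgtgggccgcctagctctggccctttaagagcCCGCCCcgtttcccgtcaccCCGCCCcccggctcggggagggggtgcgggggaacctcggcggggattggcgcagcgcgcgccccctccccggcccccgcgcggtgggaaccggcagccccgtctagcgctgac

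The window of TGFBR2 was 40.8% G and C and held no GC box, whereas those of SMAD3 and PMEPA1 were 80.8% and 76.8% G and C and held 4 and 2. This contrast holds for the windows shown: the window of the other RefSeq start of TGFBR2, at 30606601, holds 2 GC boxes. The median over 35116 promoter windows of this length was 58.0%, and 42.6% of them held a GC box on either strand. The windows of SMAD3 and PMEPA1 lie inside the GENCODE span of the gene, and that of PMEPA1 also holds exon sequence of NKILA. The letters CAGAC, the core of the SMAD-binding CAGA box, were found on neither strand of the 3 windows and in 38.0% of all windows. The palindrome GTCTAGAC (0.182% of all windows) and the AP-1 motif TGANTCA (6.57%) were not found either. This says only that these letters are not in the windows shown. Windows of other RefSeq starts did hold CAGAC, for SMAD3 at 67138021 and 67166531 and for PMEPA1 at 57710577 and 57690686. TGANTCA lay before the SMAD3 start at 67125742. The other window of TGFBR2 held none of these 3 motifs.

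Other genes of the pathway were read from the same fit. Of 58 genes in 4 lists that passed the count filter, 6 rose, 5 fell and 47 did not pass, and their median log2 fold change was -0.01. Over all genes, 3.57% rose and 4.12% fell, and the counts of each list below stand beside those shares. The lists of ligand storage and activation genes, other receptors, other SMADs and their regulators, and other target genes were drawn up with earlier results known. At an unadjusted edgeR p below 0.05 there were, in that order, 5 of 12, 3 of 9, 3 of 16 and 14 of 25 kept genes. Over all genes this share was 23.2%. Some genes are shared between lists, and these counts describe the lists and test nothing.

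Genes of ligand storage and activation included 3 of the 6 that rose. Of 15 listed genes, 12 were kept, of which 3 rose, 0 fell and 9 did not pass (median log2 fold change 0.18). FBN1, the fibrillin that forms the microfibrils to which latent complexes attach, rose from 18.5 and 19.5 CPM to 58.8 and 49.7 CPM (log2 fold change 1.51; edgeR adjusted p = 1.26e-05). LTBP1, a latent TGF-beta binding protein, rose 2.05-fold, from 33.5 and 28.2 CPM to 60.02 and 66.3 CPM (log2 fold change 1.03; edgeR adjusted p = 0.000187). ITGB8, the integrin subunit that pairs with the alpha V chain to activate latent TGF-beta, rose from 135 and 146 CPM to 239.6 and 290.4 CPM (log2 fold change 0.92; edgeR adjusted p = 0.000239). FBN1, LTBP1 and ITGB8 each passed in all 12 alternative fits, with an adjusted p of at most 0.00163. ITGB5, another partner of alpha V, stood at -0.23 in log2 fold change (edgeR adjusted p = 0.259), and LTBP4 at 0.09 (edgeR adjusted p = 0.678). ITGB5 stood at -0.11 without shGREM1-1 and at -0.35 without shGREM1-2, where it passed (edgeR adjusted p = 0.0199, in a range up to 0.648 over 12 alternatives). Without shGREM1-1, 5 of these genes rose, and without shGREM1-2, 2 fell.

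Among 10 other receptor genes, 9 were kept and 0 passed in the edgeR fit (median log2 fold change -0.14). At an unadjusted p below 0.05 there were 3 of them (CD109, BMPR2 and ENG), beside 23.2% of all genes. DESeq2 and limma-voom called 0, and 1 of the list fell without a count filter. CD109, a co-receptor that binds TGF-beta, measured 127 and 139 CPM in the control pair of libraries, then 151 and 176 CPM in the shGREM1 pair (edgeR adjusted p = 0.12), and BMPR2, the type II receptor of bone morphogenetic proteins, stood at 0.26 in log2 fold change (edgeR adjusted p = 0.181). CD109 passed without shGREM1-1 (edgeR adjusted p = 0.0189, in a range up to 0.534 over 12 alternatives). Without shGREM1-1, 1 of the list rose and 1 fell, and without shGREM1-2, 1 fell.

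Among 16 other SMAD genes and regulators, 1 rose, 1 fell and 14 did not pass (median log2 fold change -0.03). LDLRAD4, which encodes a membrane protein related to PMEPA1 that also binds SMAD2 and SMAD3 and dampens TGF-beta signalling, rose from 14.6 and 15.4 CPM to 34.6 and 45.5 CPM. Its log2 fold change was 1.42 ± 0.16 (SE; edgeR adjusted p = 8.93e-05), and it passed in all 12 alternative fits. PMEPA1 and LDLRAD4 thus both rose, while SMAD7, the inhibitory SMAD that is itself a TGF-beta target and was added after its value was seen, had 37.7 and 41.98 CPM against 44.4 and 36.9 CPM (log2 fold change 0.03; edgeR adjusted p = 0.931). TGIF1, a SMAD corepressor, fell from 142 and 144 CPM to 111 and 109 CPM (log2 fold change -0.38; edgeR adjusted p = 0.039), but did not pass without shControl-1 (0.150), shControl-2 (0.153) or shGREM1-2 (0.0518), or with upper-quartile scaling (0.0548). Over its 12 alternatives the adjusted p of TGIF1 ran from 0.0173 to 0.153. NEDD4L, a ubiquitin ligase for SMADs, and HGS, an endosomal adaptor for SMAD2, did not pass, at log2 fold changes of -0.25 and -0.18. NEDD4L stood at -0.0038 without shGREM1-1 and at -0.55 without shGREM1-2, where it passed (edgeR adjusted p = 0.000537, in a range up to 0.992 over 12 alternatives). Without shGREM1-2, 3 of this list fell.

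Other target genes moved in both directions. Of 27 listed in the table, 25 were kept, of which 2 rose, 5 fell and 18 did not pass (median log2 fold change -0.17). The NADPH oxidase gene NOX4 rose from 2.07 and 1.94 CPM to 5.06 and 4.66 CPM (log2 fold change 1.27; edgeR adjusted p = 0.0216), and NEDD9, a docking protein of focal adhesions, stood at 0.71 in log2 fold change (edgeR adjusted p = 0.0156). Those that fell were SNAI2, a transcriptional repressor (-1.14), JUNB, an AP-1 subunit (-0.74), the cell cycle inhibitor gene CDKN1A (-0.70), the cytokine gene IL11 (-0.68) and TGIF1, which the list shares with the regulators. SNAI2, JUNB and CDKN1A passed in all 12 alternative fits, with an adjusted p of at most 0.0123.

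The calls of NOX4, NEDD9 and IL11 did not hold in every alternative fit. Without shControl-1 or shControl-2, the log2 fold change moved little for NOX4 (1.31 and 1.22) and IL11 (-0.69 and -0.68). That of NEDD9 was 0.51 without shGREM1-1 and 0.90 without shGREM1-2. NOX4 did not pass without shControl-1 (edgeR adjusted p = 0.0808) or shControl-2 (0.0888), nor with DESeq2 (0.0527), and had no value with a mean CPM filter of 5. Its adjusted p ran from 0.00513 to 0.0888 over the 11 alternatives. NEDD9 did not pass without shControl-2 (0.0888) or shGREM1-1 (0.0573), over a range from 2.46e-05 to 0.0888. IL11 did not pass without shControl-1 (0.0681) or shControl-2 (0.0657), over a range from 0.000966 to 0.0681. Of this list, 1 rose and 3 fell without shControl-1, 0 rose without shControl-2 and 4 rose without shGREM1-1, and 8 fell without a count filter. JUNB shares 259 exon bases with HOOK2 on the other strand, at a mean of 53.2 CPM. The fibronectin gene FN1 (log2 fold change -0.05; edgeR adjusted p = 0.891) and the collagen gene COL4A2 (-0.0042; edgeR adjusted p = 0.992) were the most abundant members of the list that did not pass.

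**Figure D4:**
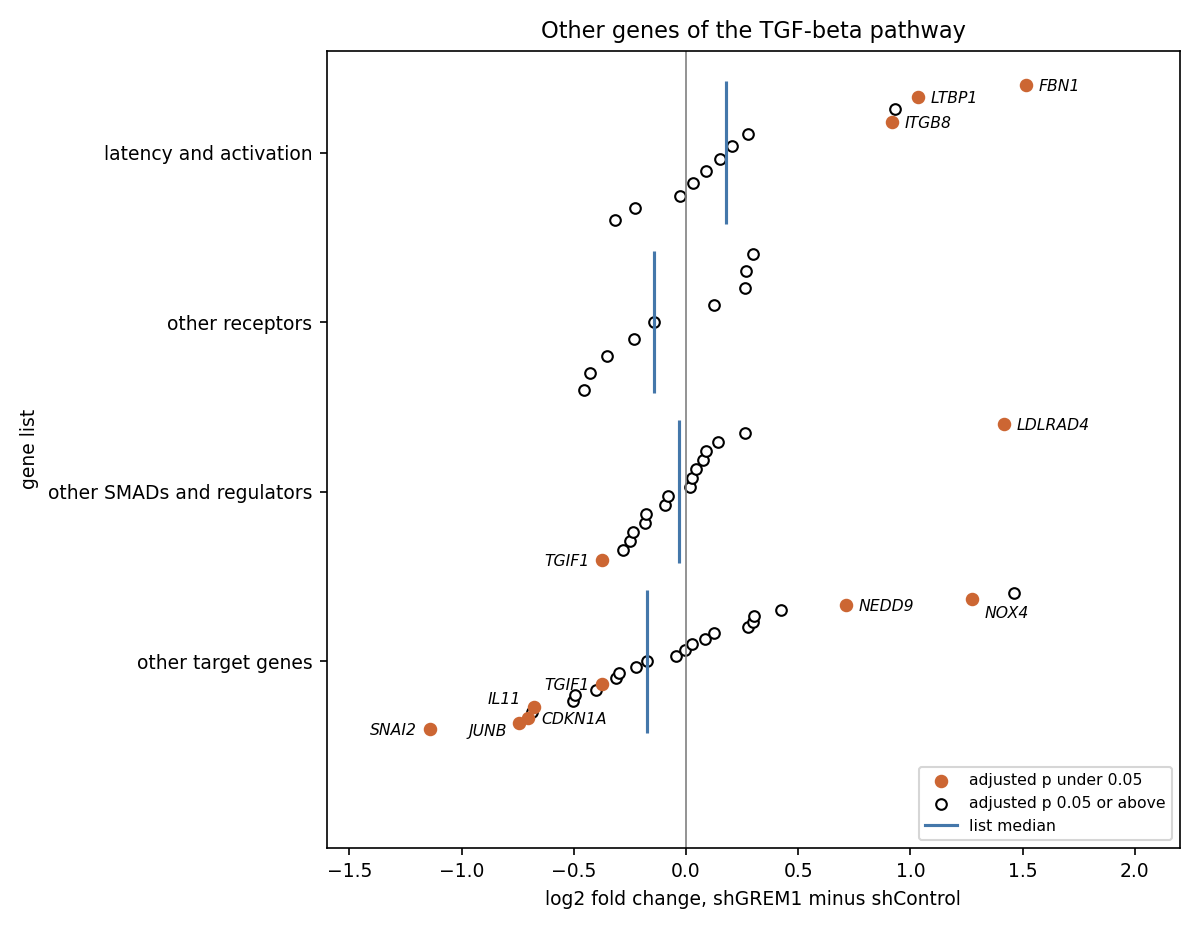
Log2 fold change (shGREM1 minus shControl) of the kept genes in 4 lists of other TGF-beta pathway genes, 1 point per gene, spread vertically by rank; orange points passed at an edgeR adjusted p below 0.05 and the blue line is the list median. FBN1, LTBP1 and ITGB8 are the 3 orange points of the storage and activation list, and the target list has 2 orange points above 0 and 5 below.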

How the data were processed

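The authors deposited raw read counts per gene for 4 libraries, of which all 4 count columns were used. Tools listed per the submitters' processing notes are DESeq2, StringTie 1.3.3b and HISAT2 2.0.5, with the mouse build mm10, but all 58735 genes matched GENCODE 29 (GRCh38) in identifier and position. No source used here gives the counting program or its strand setting. Columns were matched to samples by abbreviation only: NC1 and NC2 to the shControl pair, SHG11 and SHG12 to the shGREM1 pair, each in its numbered order. The deposited gene lengths equalled the merged exons of GENCODE 29 for all 10 genes.

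The filter was filterByExpr with a minimum count of 10 and a total of 15; kept genes were scaled by TMM and tested in edgeR 4.0.16 (R 4.3.3) with the group alone, robustly. Standard errors were derived from F. CPM values are TMM-scaled except for GREM1, cell type markers and the means of overlapping genes. The biological coefficient of variation was 11.4%. The script was tested on simulated data. Alternatives were other scalings and filters, DESeq2 1.42.0, limma-voom (limma 3.58.1), a replicate block and each library left out. In the last, the spread comes from the other group, and a group of 1 library is taken to vary like it. A call gained there is not evidence of a change, and a call lost there is not evidence against it. Within each group, libraries differed by more than sampling noise (chi-square per degree of freedom 6.19 and 10.7).

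Members and lists were chosen with earlier results of these data known. Named were all 10 members and, of each list, up to 6 genes that passed, by size of change, and the 2 most abundant that did not.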

Additional observations from a re-analysis of the deposited data

How the results depend on the processing

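Members that rose numbered 1 in the fit as reported, 2 with upper-quartile scaling or a mean CPM filter of 5, 3 without a count filter, and 0 to 3 with single libraries left out; those that fell numbered 2, then 1 with upper-quartile scaling, total count scaling or limma-voom, and 1 to 3 with single libraries left out. Over all genes, 659 rose and 759 fell. Without a count filter 1142 fell, and with single libraries left out 266 to 998 rose and 382 to 1112 fell. Upper-quartile scaling gave 793 higher and 631 lower, total count scaling 709 and 663, and a mean CPM filter of 5 gave 708 and 688. In the 4 pathway lists 9 fell without a count filter, and 4 to 10 rose and 3 to 11 fell with single libraries left out.

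No pairing was used, because the replicate numbers share no stated origin. Deviations of same-numbered libraries from their group means had a correlation of 0.0093 across 16530 genes. With the replicate number as a block, 1101 genes rose and 1273 fell, of the members 3 rose, and of the pathway lists 9 fell.

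The difference in the TGFB3 share reversed to -0.12 percentage points without shControl-2, within a range up to 0.35 over single libraries left out. Log2 fold changes near 0 reversed for TGFB1 (-0.0105 without shControl-1, up to 0.0673 over single libraries left out), TGFB3 (-0.145 without shControl-2, up to 0.569), FN1 (0.168 without shGREM1-1, down to -0.296) and COL4A2 (0.0291 with upper-quartile scaling, 0.0174 with total counts, 0.0104 with a mean CPM filter of 5, 0.113 and 0.0706 without shControl-1 or shGREM1-1, down to -0.123 over single libraries left out). The cause was not tested. Low counts limit TGFB3 (59 to 98 counts a library), NOX4 (30 to 83) and GREM1 (0 to 2), among others. The block also gave 1 call among the other receptors, as lower.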
